A study of Caenorhabditis elegans with 12 samples.

Results

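Alternative first exons are pairs of exons that each begin a transcript of the same gene and are joined to the same next exon, so that a transcript carries one or the other. They were taken from the deposited catalogue of splicing events named for Ensembl archive 65, as every event with an AF identifier. The catalogue listed 2619 events on genome build ce10 over all libraries, and 604 of them were alternative first exons. Counting overlapping events on a strand as 1 locus gave 394 loci, of which 321 held 1 event and 73 held 2 or more.

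A first exon is chosen mainly by where transcription starts, since each alternative first exon lies behind its own promoter, and the spliceosome then joins the donor site at its end to the shared acceptor. Where both first exons overlap, the choice can instead be one between neighbouring donor sites of transcripts that start at almost the same place. In Caenorhabditis elegans many pre-mRNAs also receive a spliced leader in trans, which replaces the original 5′ end of the transcript. Alternative first exons let a gene be expressed from separate promoters and can change the N-terminus of its protein.

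Splicing had been measured by RNA-seq of ribosome-depleted total RNA from whole larvae at the L3 stage, grown for 34 hours at 20 °C from bleached embryos, in 12 libraries that form 4 groups of 3. The groups were sacy-1(tn1385), strain dg3430 in the titles, libraries az024 to az026, with N2 libraries az021 to az023 (N2 az02), and mog-5(az192), strain sz454, libraries az044 to az046, with N2 libraries az041 to az043 (N2 az04). N2 is the wild-type laboratory strain, and no allele or agent besides those named is given for any group. SACY-1 is the worm counterpart of the DEAD-box helicase DDX41, MOG-5 that of PRP22, which releases spliced mRNA from the spliceosome, and the series asks how both affect the choice of 3′ splice sites.

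Which N2 libraries belong with which mutant was read from the library numbers in the titles, and libraries az021 to az026 and az041 to az046 are called the az02 and the az04 set. Nothing in the labels tells whether replicate libraries stem from separate cultures, and p-values here measure spread among libraries that may be no more than technical. Also missing are the sequence change of each allele and whether a mutant is 1 isolate. The files hold the choice between forms and no expression levels, so larval stage, cell type markers and the mutated genes could not be checked, and the reads behind a value are unknown. In whole larvae fewer cells of a type and less RNA per cell cannot be told apart, and a change in use of a first exon may reflect either.

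In all 604 events the included form began at the exon farther upstream, and both forms joined the same acceptor. The value used throughout, the included score as a percent of both scores, is called upstream use below. It is the share of the joining of both exons to that acceptor that came from the exon starting farther upstream. Upstream refers to the listed exon starts only. The 604 events held 596 distinct intron pairs. AF.0000163 and AF.0000102 hold the same introns with the forms reversed, so their mean upstream use was 91.7% and 8.30%. Both scores summed to 1000 in all 6917 values. Between 565 and 585 events were listed per library, 546 events at 358 loci were listed in all 12 libraries, and 58 in fewer. The events lay on chromosomes I (122), II (101), III (75), IV (96), V (108) and X (102).

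Pairs of first exons came in 2 forms. In 456 events the exons were separate, with starts a median of 1756 nt apart (quartiles 791 and 3849 nt). In 148 events the exons overlapped, with starts a median of 16.5 nt apart, and in 106 of these the donor sites lay within 20 nt of each other. Both introns of 26 alternative first exon events were also listed as an alternative 5′ splice site in the other deposited catalogue, which was built on library introns, and the 26 carried the same values there. Over all events the starts lay 1 to 20812 nt apart, and the intron behind the upstream exon had a median length of 1780 nt, against 341.5 nt behind the downstream exon.

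**Figure D1:**
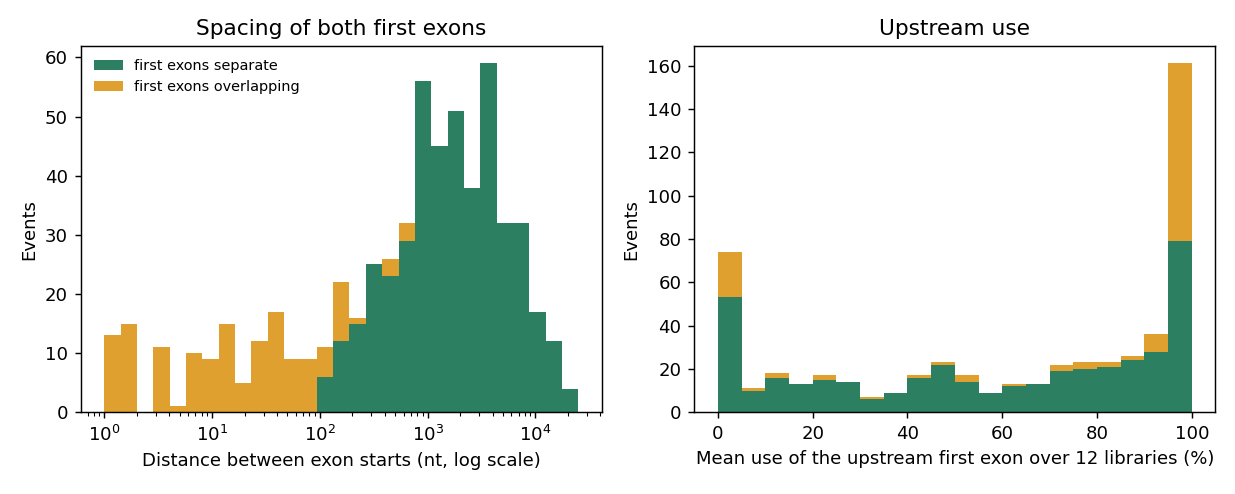
The left panel counts all 604 events by the distance between the starts of both first exons (nt, log scale), and the right panel counts the 546 events listed in every library by mean upstream use over 12 libraries (%). Overlapping first exons (orange) lie at short distances and mostly at high upstream use, while separate first exons (green) are spread over the whole range of use.

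Values near an extreme in every library were common in overlapping first exon pairs and less frequent in separate ones. Of the 546 events listed in every library, 154 stood above 90% upstream use in all 12 libraries, 65 stood below 10% in all 12, and 327 did neither. Overlapping pairs were at such an extreme in 74.4% of cases and had a median range over the 12 libraries of 0.08 percentage points. Separate pairs were at an extreme in 29.1% and had a median range of 16.4 points. Median upstream use was 99.7% in overlapping and 64.7% in separate pairs, so overlapping first exons were mostly joined from the form that starts farther upstream. Values of exactly 0.1% or 99.9% were frequent, with 46 to 74 and 104 to 140 events per library. Those at 99.9% numbered 128 to 140 in libraries of the az02 set and 104 to 112 in the az04 set. Those at 0.1% overlapped between the sets, with 49 to 74 and 46 to 58. What produced these values is not given in the sources used here, and they were not counted apart for overlapping and separate pairs.

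Mixed use could also be steady. Both exons contributed at least 20% in every library in 89 events, and 94 events lay on both sides of 50% in different libraries. The steadiest mixed locus was AF.0000461 on chromosome IV, minus strand, at 5749319 to 5757689, whose first exons start 7603 nt apart. Its upstream use was 39.0%, 37.6% and 44.4% in sacy-1, 37.4%, 38.9% and 39.8% in N2 az02, 43.1%, 39.1% and 39.5% in mog-5, and 38.0%, 40.3% and 36.0% in N2 az04. No group stood apart, and the 12 libraries spanned 8.43 points. AF.0000048 on chromosome IV, plus strand, at 6053787 to 6062141, spanned 68.5% to 78.4%. AF.0000542 on chromosome X, minus strand, at 10187830 to 10194317, spanned 25.6% to 35.5%. Another pair at the same acceptor, AF.0000209, was not steady and separated by library set, as given below. The other members of the 5 steadiest were AF.0000498 on chromosome V, plus strand, at 10022474 to 10024875, from 51.1% to 61.3%, and AF.0000463 on chromosome V, minus strand, at 10262293 to 10270289, from 56.2% to 66.5%. These 5 were chosen for their small range, and over all pairs whose starts lie more than 2000 nt apart the median range was 17.5 points. At AF.0000463 the sets still did not overlap, since the az02 set held 63.95% to 66.5% and the az04 set 56.2% to 60.9% (N2 az04 minus N2 az02 -5.57 points, limma adjusted p = 0.0643). At AF.0000498 every mog-5 library (59.7% to 60.9%) lay above every N2 az04 library (54.6% to 56.45%). The difference was 5.13 points (limma adjusted p = 0.123). N2 az02 ran from 51.45% to 61.3% there and overlapped mog-5.

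The mean upstream use over the 546 events was close in all groups. It was 61.9% ± 0.249 in sacy-1 and 61.5% ± 0.691 in N2 az02, and 61.8% ± 0.242 in mog-5 and 61.5% ± 0.540 in N2 az04 (SD, n = 3 each). The lowest and highest library of each mutant lay within or overlapped the range of its N2 libraries (61.6% to 62.1% against 60.9% to 62.2%, and 61.5% to 62.0% against 60.9% to 61.9%). The difference between each mutant and its N2 libraries was smaller than the SD of those N2 libraries.

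In sacy-1 larvae no alternative first exon was called against N2 az02. A call asked for a limma p adjusted over the whole catalogue below 0.05 and a difference of at least 15 points, which 0 of 546 events met, where 0.714% of all 2382 events tested in the catalogue did. The count was also 0 on the arcsine square root scale and with a variance trend, and the smallest adjusted p of a first exon event was 0.0921. At an unadjusted p below 0.05 there were 50 events (9.16%) at 40 loci, against 12.6% of the whole catalogue. Of these, 22 had higher and 28 lower upstream use, 4.03% and 5.13% of the events tested, against 6.51% and 6.09% of the catalogue. The 3 sacy-1 libraries did not overlap the 3 N2 libraries in 68 events (12.5%), against 16.3% of the catalogue. For 380 of the 546 events (69.6%) the 95% interval of the difference lay wholly within 15 points of 0, and for the rest it reached a difference of that size. The 380 include 91 events that had the same value in all 12 libraries.

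The largest separated difference in sacy-1 was at AF.0000331 on chromosome IV, minus strand, at 3737839 to 3738931. Upstream use was 50%, 50% and 0.1% in sacy-1 and 99.9% in each N2 az02 library, a difference of -66.5 points (95% interval -109 to -24.1, limma adjusted p = 0.202). The az04 set had 71.4%, 99.9% and 50% in mog-5 and 42.9%, 75% and 62.5% in N2 az04. The SD was 28.8 points in sacy-1 and 16.2 points in N2 az04, whereas N2 az02 had no spread and sat at the score limit.

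The other 3 groups were tight at AF.0000392 on chromosome IV, plus strand, where an exon ending at 8987286 competes with one at 8988565 to 8988682 for the acceptor before 8988755. Upstream use was 51.6%, 68.2% and 70.7% in sacy-1, against 88.9%, 84.5% and 89.3% in N2 az02 (difference -24.0 points, 95% interval -39.9 to -8.24, adjusted p = 0.212). It was 83.8%, 83.3% and 82.4% in mog-5, against 83.3%, 83.0% and 82.7% in N2 az04. All 3 sacy-1 libraries lay below the other 9, which ran from 82.4% to 89.3%. In 1 fit of all 12 libraries, which shares the spread of the 4 groups, this event was called (adjusted p = 0.0228).

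At AF.0000310 on chromosome II, plus strand, an exon at 6485645 to 6485759 competes with one at 6486606 to 6486758. Upstream use was 40%, 42.4% and 33.3% in sacy-1, against 14.3%, 20.5% and 13.3% in N2 az02 (difference 22.5 points, 95% interval 13.5 to 31.6, adjusted p = 0.0963). It was 31.3%, 31.3% and 25.6% in mog-5, against 30.5%, 34.7% and 33.3% in N2 az04. The 3 lowest of the 12 libraries were those of N2 az02, and 2 of the 3 sacy-1 libraries were the highest. The lowest sacy-1 library equalled the middle N2 az04 library.

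AF.0000061 on chromosome X, plus strand, at 9529603 to 9532032, had opposite differences in the mutants. Upstream use was 42.9%, 52.6% and 69.2% in sacy-1, against 85.7%, 87.5% and 80% in N2 az02 (difference -29.5 points, adjusted p = 0.226). In mog-5 it was 71.1%, 80% and 77.4%, against 66.7%, 57.4% and 57.5% in N2 az04 (difference 15.7 points, adjusted p = 0.291). Each mutant was separated from its own N2 libraries, and the N2 groups were separated from each other as well (N2 az04 minus N2 az02 -23.9 points, adjusted p = 0.0620).

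The remaining separated events in sacy-1 were smaller or rested on scattered libraries. AF.0000275 on chromosome X, plus strand, at 3555831 to 3556560, had 66.7%, 40% and 44.4% in sacy-1, against 0.1%, 27.3% and 20% in N2 az02 (difference 34.6 points, adjusted p = 0.313). Its acceptor is also a site of an alternative 3′ splice event called in sacy-1. AF.0000568 on chromosome I, minus strand, at 3860470 to 3862732, had 44.4%, 53.3% and 61.3% in sacy-1, against 27.3%, 36% and 24.4% in N2 az02 (difference 23.8 points, adjusted p = 0.204). Both lay higher in all 3 sacy-1 libraries than in any N2 az02 library, and neither passed the adjusted threshold. At both, mog-5 overlapped sacy-1. AF.0000275 had 50% in all 3 mog-5 libraries and 32%, 23.5% and 40% in N2 az04. AF.0000568 had 38.9%, 52.4% and 46.3% in mog-5 and 42.6%, 37.0% and 31.7% in N2 az04. AF.0000528 on chromosome V, minus strand, at 12013310 to 12013586, a pair of overlapping exons, stood at 0.1% in all 3 sacy-1 libraries, against 16.7%, 12.5% and 33.3% in N2 az02. Since 2 of the 3 N2 az04 libraries were also listed at 0.1%, the value in sacy-1 also occurred in wild-type larvae. AF.0000045 on chromosome V, plus strand, at 8947777 to 8952060, had 36.4%, 36.4% and 29.2% in sacy-1, against 52.9%, 52.4% and 45.5% in N2 az02 (difference -16.3 points, adjusted p = 0.146). There mog-5 overlapped sacy-1, with 36.2%, 48.4% and 32.5%, and N2 az04 had 41.5%, 51.65% and 39.7%.

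Because the series turns on 3′ splice sites, first exons were also set beside the alternative 3′ splice events of the other catalogue, the one built on library introns. In sacy-1 against N2 az02, 313 of 3370 such events were called (9.29%), and in mog-5 against N2 az04 66 of 3433 (1.92%). Of the loci called in sacy-1, 6 held alternative first exons, with 10 first exon events, and 6 of those events joined an acceptor that was itself part of a called 3′ event. An unadjusted p below 0.05 was found for 2 of these 10, against 9.16% of all first exon events tested. Of the 66 events called in mog-5, 0 lay at a locus with alternative first exons. A locus here is only the span of its first exon events, so a 3′ event elsewhere in the same gene was not counted. The share of all tested 3′ events that lie at such loci was not determined, so these counts have no base rate beside them.

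In mog-5 larvae no alternative first exon was called against N2 az04 either. The call was met by 0 of 569 events, where 0.04% of all 2498 events in the catalogue met it, with 0 also on the arcsine square root scale and with a variance trend, and the smallest adjusted p was 0.101. An unadjusted p below 0.05 was found for 50 events (8.79%) at 45 loci, against 10.2% of the catalogue. Upstream use was higher in 28 and lower in 22 of them, 4.92% and 3.87%, against 5.4% and 4.76% of the catalogue. Libraries did not overlap in 73 events (12.8%), against 13.9% of the catalogue. The 95% interval lay within 15 points of 0 for 425 events (74.7%), which include the 91 with the same value in all 12 libraries.

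The largest separated differences in mog-5 were at events with scattered libraries. AF.0000495 on chromosome V, minus strand, at 11469024 to 11470645, had 50%, 0.1% and 28.6% in mog-5, against 75%, 57.1% and 83.3% in N2 az04 (difference -45.6 points, adjusted p = 0.442), and it was listed in only 1 N2 az02 library. AF.0000057 on chromosome IV, minus strand, at 7954635 to 7955886, had 99.9%, 99.9% and 88.9% in mog-5, against 60%, 30% and 63.2% in N2 az04 (difference 45.2 points, adjusted p = 0.279). Within sacy-1 the same event ran from 50% to 99.9%, so its span between libraries of 1 group was as large as the difference. AF.0000275, described above, stood at 50% in all 3 mog-5 libraries, against 32%, 23.5% and 40% in N2 az04 (difference 18.2 points, adjusted p = 0.292).

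Other separated events in mog-5 had tighter libraries within the az04 set. AF.0000187 on chromosome II, minus strand, at 8310350 to 8315667, had 30%, 39.4% and 38.2% in mog-5, against 11.4%, 21.7% and 21.6% in N2 az04 (difference 17.6 points, 95% interval 6.16 to 29.1, adjusted p = 0.291). AF.0000518 on chromosome V, minus strand, at 8209423 to 8213948, had 53.5%, 60.2% and 66.7% in mog-5, against 45.2%, 46.8% and 46.5% in N2 az04 (difference 13.9 points, adjusted p = 0.316). At both loci every mog-5 library lay above every N2 az04 library. At AF.0000187 N2 az02 was scattered, from 2.94% to 27.3%, and sacy-1 ran from 15.4% to 23.3%, all below mog-5. At AF.0000518 N2 az02 ran from 34.8% to 54.55% and sacy-1 from 48.15% to 56.4%, so both overlapped mog-5. AF.0000612 on chromosome X, minus strand, at 5311611 to 5323353, with first exons 10586 nt apart, had 22.2%, 25% and 29.3% in mog-5, against 4.76%, 15.2% and 15.2% in N2 az04 (difference 13.8 points, adjusted p = 0.347). All 3 mog-5 libraries were the highest of the 12 there, since sacy-1 ran from 4.76% to 13.3% and N2 az02 from 4.35% to 7.14%. AF.0000209 on chromosome X, minus strand, at 10187826 to 10190380, had 32.3%, 33.8% and 35.1% in mog-5, against 41.3%, 42.9% and 51.0% in N2 az04 (difference -11.3 points, adjusted p = 0.316).

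**Figure D2:**
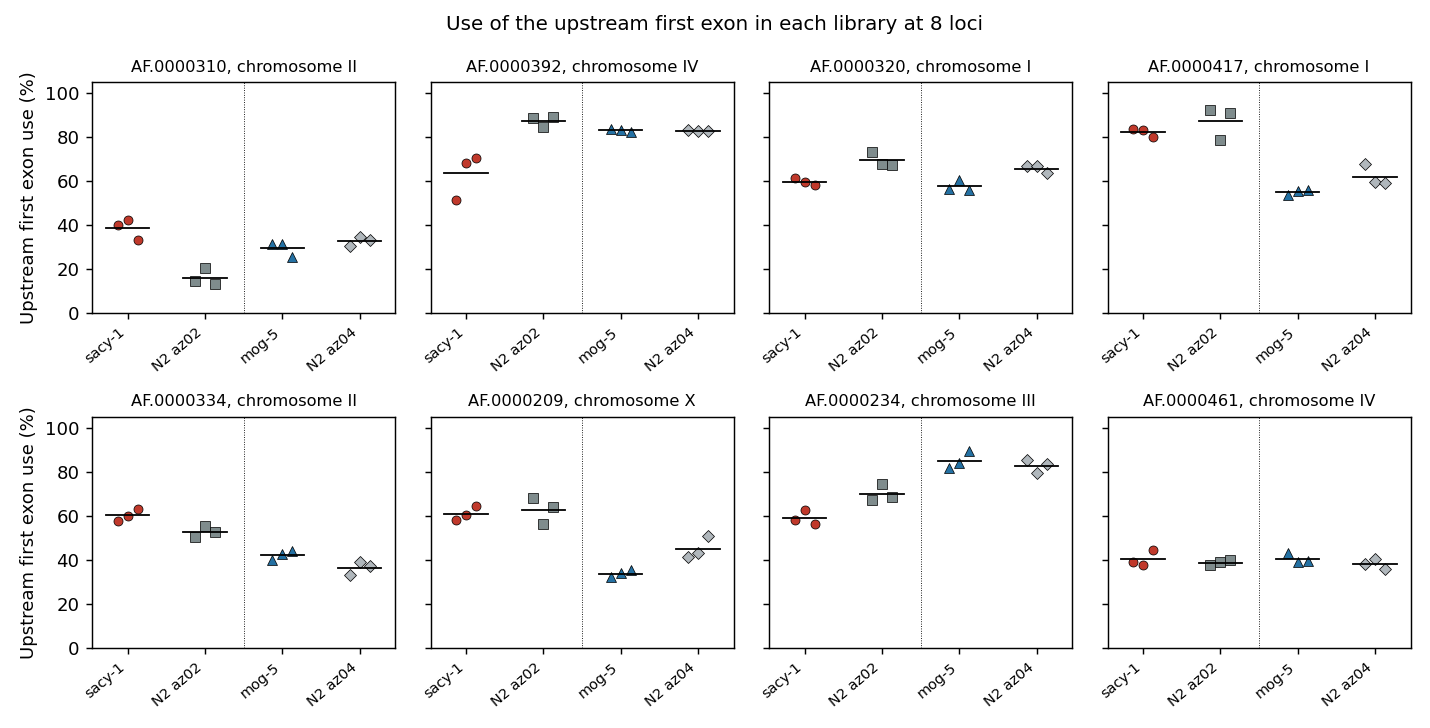
Each panel shows upstream use (%) in the 12 libraries at 1 first exon pair, with sacy-1 and mog-5 left of their own N2 libraries, 1 point per library and a bar at the group mean. AF.0000392 is lower in sacy-1 than in the other 9 libraries, AF.0000310 is lower in N2 az02 than in the other 9, AF.0000320 is lower in both mutants than in their N2 libraries, AF.0000417, AF.0000334, AF.0000209 and AF.0000234 separate by library set, and AF.0000461 is level.

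No first exon event passed the adjusted threshold in either mutant, and events with an unadjusted p below 0.05 in both were read next, each mutant against its own N2 libraries, which are not shared. Of the 546 events tested in both, 8 (1.47%) had such a p in the same direction, against 2.39% of 2380 events in the catalogue, and 3 (0.549%) in opposite directions, against 0.294%. The members named are those with the same direction. The clearest was AF.0000320 on chromosome I, minus strand, at 5429314 to 5429911, where the first exons overlap and start 74 nt apart. Upstream use was 61.3%, 59.5% and 58.3% in sacy-1, against 73.3%, 67.9% and 67.5% in N2 az02 (difference -9.84 points, 95% interval -15.1 to -4.53, adjusted p = 0.146). It was 56.4%, 60.5% and 55.8% in mog-5, against 66.7%, 66.7% and 63.6% in N2 az04 (difference -8.11 points, 95% interval -12.6 to -3.58, adjusted p = 0.257). All 6 mutant libraries lay below all 6 N2 libraries. A donor site at 5429831, next to that of the upstream exon, joins the same acceptor. This site took 36.5% of joining in sacy-1 against 24.4% in N2 az02, and 26.6% in mog-5 against 27.98% in N2 az04. In that order the downstream exon took 25.6%, 23.1%, 31.2% and 24.7%, the upstream exon 37.9%, 52.4%, 42.3% and 47.3%. The lower value thus came with more use of 5429831 in sacy-1 and of the downstream exon in mog-5. No pair was left to check these shares, which were not tested.

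The other named loci with an unadjusted p below 0.05 in the same direction were AF.0000275, with differences of 34.6 points in sacy-1 and 18.2 points in mog-5, and 3 more. AF.0000026 on chromosome V, minus strand, at 10237683 to 10238835, has overlapping exons whose starts lie 3 nt apart. The exon that starts upstream has its donor site farther downstream, with an intron of 180 nt behind it, against 629 nt behind the other. It had 88.2%, 88.1% and 82.5% in sacy-1, against 91.6%, 91.7% and 92.9% in N2 az02, and 85.5%, 83.6% and 84.3% in mog-5, against 91.6%, 88.6% and 87.5% in N2 az04. One N2 az04 library lay below 2 sacy-1 libraries, so the mutants and the N2 libraries of both sets overlapped there.

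AF.0000370 on chromosome X, minus strand, at 13155240 to 13161406, had 59.0%, 57.5% and 60.3% in sacy-1, against 53.0%, 47.0% and 48.9% in N2 az02 (difference 9.28 points, adjusted p = 0.146). In mog-5 it had 48.2%, 43.5% and 44.6%, against 35.7%, 41.0% and 35.8% in N2 az04 (difference 7.98 points, adjusted p = 0.327). AF.0000334 on chromosome II, plus strand, at 9113157 to 9116834, had 57.6%, 59.9% and 63% in sacy-1, against 50.3%, 55.5% and 52.8% in N2 az02 (difference 7.31 points, adjusted p = 0.255). In mog-5 it had 39.7%, 42.5% and 44.0%, against 33.2%, 38.8% and 37.0% in N2 az04 (difference 5.75 points, adjusted p = 0.448). At both loci each mutant lay above its own N2 libraries, yet the N2 groups lay farther apart than that, by -12.2 points at AF.0000370 and -16.6 points at AF.0000334 (N2 az04 minus N2 az02, adjusted p = 0.0928 and 0.0508). Set against the other N2 group, mog-5 was lower at both (-4.21 and -10.8 points).

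The effects of both mutants, each against its own N2 libraries, were compared in 1 fit as a difference of differences. It was called at 1 of 546 first exon events, where 0.252% of 2380 events in the catalogue were called, and 44 events (8.06%) had an unadjusted p below 0.05, against 9.16%. The event was AF.0000310, described above, with a difference of 26.0 points (95% interval 16.7 to 35.3, limma adjusted p = 0.0438), made of 22.5 points in sacy-1 and -3.44 points in mog-5. Its adjusted p was above 0.05 when any 1 of 10 libraries was left out, with differences of 24.1 to 27.2 points, and below it without az022 or az026.

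Without the minimum difference 2 events passed (0.366%, against 0.42% of the catalogue). The second, besides AF.0000310, was AF.0000220 on chromosome II, minus strand, at 5280106 to 5282500. Upstream use was 96.1%, 94.6% and 97.3% in sacy-1, against 96.5%, 98.7% and 96.8% in N2 az02, and 94.2%, 96.8% and 93.8% in mog-5, against 87.7%, 87.8% and 87.2% in N2 az04. The difference of differences was -8.68 points (95% interval -11.8 to -5.54, adjusted p = 0.0438). Its adjusted p was 0.161 on the arcsine square root scale and 0.0529 to 0.139 when any 1 of 11 libraries was left out, and it was 0.0372 without az026. The 3 N2 az04 libraries lay below the other 9 here.

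The groups of wild-type larvae also differed from each other in the use of first exons. No event was called between N2 az04 and N2 az02 on the percent scale, 0 of 552 where 0.499% of 2405 events in the catalogue were, nor with a variance trend in limma, while 1 was called on the arcsine square root scale. Without the minimum difference 8 passed (1.45%, against 1.7% of the catalogue), and 94 events (17.0%) at 78 loci had an unadjusted p below 0.05, against 18.7%, beside the 9.16% in sacy-1 and 8.79% in mog-5 given above, which share these N2 libraries. Libraries did not overlap in 126 events (22.8%), against 23.2% of the catalogue. In separate first exons an unadjusted p below 0.05 was found for 20.4%, in overlapping ones for 6.67%. Most overlapping pairs stood at an extreme of use, and the share also ran with use. It was 25.1% at a mean use of 10% to 90%, 5.68% under 10% and 11.2% over 90%. Overlap and level of use were not separated. In sacy-1 against N2 az02 the share was 8.72% in separate and 10.5% in overlapping pairs, and in mog-5 against N2 az04 it was 9.30% and 7.19%. Listing also ran with the library set, with 565 to 575 first exon events in az02 libraries and 579 to 585 in az04 libraries. Median upstream use per library was 74.66% to 78.445% in the az02 set and 72.045% to 73.72% in the az04 set. Values at the upper score limit ran with the set as well, as given above. The part of these properties in the differences of use was not tested. What differed in the origin of both N2 sets besides the library numbers is not given, and its part in the mutant comparisons was not tested.

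Among the 8 events, AF.0000446 on chromosome IV, minus strand, at 4469329 to 4470425, had 29.8%, 24.7% and 27.5% in N2 az04, against 14.4%, 14.7% and 11.98% in N2 az02 (limma adjusted p = 0.0477). AF.0000124 on chromosome X, minus strand, at 7696380 to 7707035, had 80.7%, 83.3% and 78.4% in N2 az04, against 93.6%, 94.3% and 93.3% in N2 az02 (adjusted p = 0.0477). AF.0000431 on chromosome X, minus strand, at 9666827 to 9668698, had 83.9%, 83.3% and 82.1% in N2 az04, against 94.8%, 96.3% and 92.6% in N2 az02 (adjusted p = 0.0404). At AF.0000431 the mutants followed their library set, with 94.1%, 92.6% and 92.6% in sacy-1 and 81.5%, 84.7% and 86.4% in mog-5.

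AF.0000076 on chromosome V, minus strand, at 8541517 to 8545544, had 93.3%, 90.9% and 90.5% in N2 az04, against 99.9%, 98.6% and 99.9% in N2 az02 (adjusted p = 0.0477), with 99.9% in every sacy-1 library and 94.6%, 92.1% and 84.0% in mog-5. AF.0000110 on chromosome IV, plus strand, at 1849579 to 1861002, had 19.1%, 19.2% and 19.1% in N2 az04, against 13.4%, 14.5% and 13.9% in N2 az02 (adjusted p = 0.0180). The downstream exon was thus rarely joined at AF.0000076 in the az02 set and usually joined at AF.0000110 in both. The other members were AF.0000186 on chromosome III, plus strand, at 6806477 to 6809682, which averaged 18.7% ± 2.65 in N2 az04 and 6.01% ± 1.08 in N2 az02, and AF.0000366 on chromosome I, plus strand, at 14933793 to 14940951, which averaged 84.0% ± 0.612 in N2 az04 and 78.2% ± 0.984 in N2 az02 (SD, n = 3 each). AF.0000220, given above, was the eighth. When each of the 6 N2 libraries was left out in turn, AF.0000110 passed in 4 fits and the other 7 events in 0 to 2, with adjusted p of up to 0.150 among the 8.

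The largest separated differences between the N2 groups did not pass the adjusted threshold, since their libraries were more scattered. AF.0000417 on chromosome I, plus strand, at 3421160 to 3424179, had 67.6%, 59.4% and 59.1% in N2 az04, against 92.5%, 78.9% and 90.9% in N2 az02 (difference -25.4 points, adjusted p = 0.0912). The mutants differed from each other in the same way there, with 83.6%, 83.3% and 80.3% in sacy-1 and 53.7%, 55.6% and 56.1% in mog-5. AF.0000087 on chromosome V, plus strand, at 12131431 to 12133001, had 44.8%, 31.4% and 48.6% in N2 az04, against 17.7%, 16.1% and 7.69% in N2 az02 (difference 27.8 points, adjusted p = 0.106), with 5%, 3.85% and 0.1% in sacy-1 and 32.3%, 29.4% and 56% in mog-5. At both loci all 6 libraries of one set lay on one side of all 6 libraries of the other.

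AF.0000522 on chromosome IV, minus strand, at 9631224 to 9634931, had 44.3%, 49.2% and 49.8% in N2 az04, against 11.8%, 32.1% and 25.9% in N2 az02 (difference 24.5 points, adjusted p = 0.132). The mutant libraries there held 10.8%, 23.0% and 31.7% in sacy-1 and 47.7%, 48.4% and 52.6% in mog-5. AF.0000286 on chromosome I, plus strand, at 9018718 to 9019540, had 38.7%, 40.5% and 39.2% in N2 az04, against 10%, 27.3% and 0.1% in N2 az02, and AF.0000079 on chromosome III, minus strand, at 5979658 to 5981288, had 46.7%, 34.8% and 48.9% in N2 az04, against 18.5%, 20.5% and 32.6% in N2 az02. These 3 separated by set in the N2 libraries and in the mutant libraries alike. AF.0000278 on chromosome V, plus strand, at 10636001 to 10642452, had 43.8%, 27.3% and 41.7% in N2 az04, against 25%, 0.1% and 0.1% in N2 az02, and its mutant libraries overlapped. AF.0000331 and AF.0000061, described above, complete the 8 largest.

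**Figure D3:**
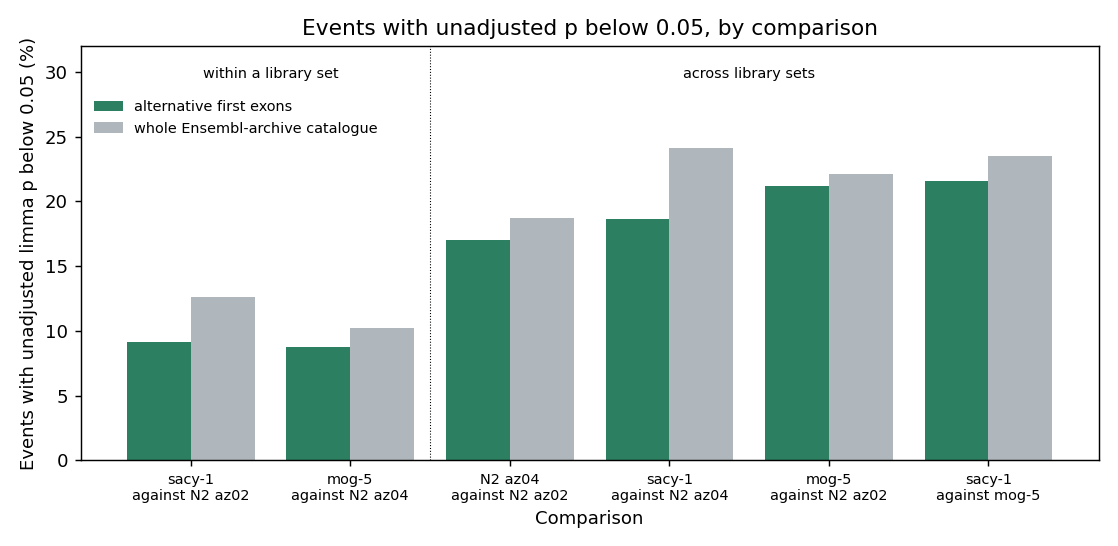
Bars give the percent of tested events with an unadjusted limma p below 0.05 in each comparison of 2 groups, for alternative first exons (green) and for the whole catalogue (grey). First exons reach 9.16% and 8.79% in the comparisons of each mutant with its own N2 libraries and 17.0% to 21.6% in the comparisons across library sets, at or below the catalogue in each.

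The libraries as a whole also lay nearer to those of their own set. The mean absolute difference in upstream use over the 546 events was 3.20 to 5.71 points between the 12 pairs of libraries of 1 group (median 4.51) and 3.73 to 5.88 points between the 18 pairs of mutant and N2 libraries of 1 set (median 5.24). It was 5.56 to 7.78 points between the 36 pairs from different sets (median 6.37). The closest pair was 2 N2 az04 libraries, and the farthest was mog-5 az046 and N2 az021. Averaged over events, the SD among replicate libraries was 3.74 points in sacy-1, 4.34 in N2 az02, 3.25 in mog-5 and 3.10 in N2 az04.

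**Figure D4:**
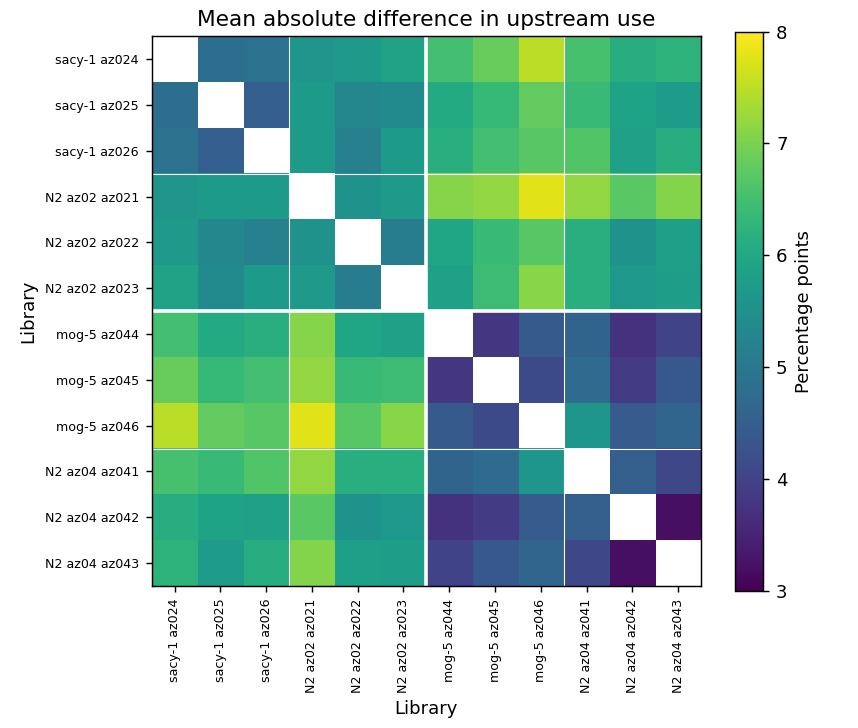
The colour gives the mean absolute difference in upstream use (percentage points) between each 2 of the 12 libraries over the 546 first exon events listed in all, with thick lines between both library sets. Pairs from different sets (5.56 to 7.78 points) are farther apart than most pairs within a set, and N2 az021 is among the most distant libraries.

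Comparisons across the sets gave more calls. Set against N2 az04, sacy-1 had 15 called events of 558 at 13 loci (2.69%, against 2.84% of the catalogue). Set against N2 az02, mog-5 had 7 called events of 553 at 6 loci (1.27%, against 1.62%). Directly against mog-5, sacy-1 had 16 called events of 556 at 15 loci (2.88%, against 2.02%). At an unadjusted p below 0.05 the 3 comparisons had 104, 117 and 120 first exon events (18.6%, 21.2% and 21.6%), against 24.1%, 22.1% and 23.5% of the catalogue. In each of these comparisons mutation and library set cannot be told apart. Leaving out single libraries gave 8 to 14 called events against N2 az04 (8 without az043), 0 to 3 in mog-5 against N2 az02 (0 without az021) and 5 to 11 in sacy-1 against mog-5 (5 without az025 or az026).

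The 16 events called between the mutants were then read in the 6 N2 libraries, which had no part in those calls. In 16 of 16 the N2 az02 mean lay on the same side of the N2 az04 mean as sacy-1 lay of mog-5, and in 12 the N2 groups did not overlap either. Over the 420 first exon events with a difference in both, 280 (66.7%) were on the same side and 103 (24.5%) were also separated in N2. The called events are ones with large differences and mixed use, so their share is no like-for-like measure beside that of all events.

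In some of these pairs both contrasts were large. At AF.0000417 mean upstream use was 82.4% ± 1.84 in sacy-1 and 55.1% ± 1.26 in mog-5 (difference 27.3 points, 95% interval 24.0 to 30.6, limma adjusted p = 0.00407), and the N2 az02 and N2 az04 means were 87.4% ± 7.45 and 62.0% ± 4.82 (SD, n = 3 each). At AF.0000209 the mutants averaged 60.9% ± 3.31 in sacy-1 and 33.7% ± 1.40 in mog-5 (difference 27.2 points, adjusted p = 0.0108), and N2 az02 and N2 az04 averaged 62.8% ± 6.13 and 45.1% ± 5.23. AF.0000287 on chromosome I, minus strand, at 6881246 to 6883111, averaged 84.9% in sacy-1 and 69.6% in mog-5 (adjusted p = 0.00369), beside 83.6% in N2 az02 and 72.1% in N2 az04. The N2 groups were thus 25.4 points apart at AF.0000417, 17.7 at AF.0000209 and 11.5 at AF.0000287, where the mutants differed by 27.3, 27.2 and 15.3 points.

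At every event called between the mutants, the mutants differed more than the N2 groups, and these events were selected on the mutant difference. At some of them the N2 groups also overlapped. AF.0000487 on chromosome X, plus strand, at 11271184 to 11273277, had 90%, 90% and 75% in sacy-1 and 44.7%, 55.2% and 51.0% in mog-5 (difference 34.7 points, adjusted p = 0.0438), with 77.8%, 78.6% and 71.4% in N2 az02 and 56.3%, 70% and 77.8% in N2 az04. The mog-5 libraries were the lowest 3 of the 12, and the N2 groups overlapped. AF.0000132, at the same locus as AF.0000187 on chromosome II, minus strand, lies at 8310350 to 8318659. It averaged 29.4% in sacy-1 and 56.3% in mog-5 (difference -27.0 points, adjusted p = 0.0400), beside 35.3% in N2 az02 and 39.6% in N2 az04. The difference of differences was called neither at AF.0000487 (adjusted p = 0.354) nor at AF.0000132.

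Among events called between sacy-1 and N2 az04, the largest difference was at AF.0000375 on chromosome IV, plus strand, at 10017404 to 10019559, with 76.9%, 66.7% and 85.7% in sacy-1, against 16.7%, 33.3% and 33.3% in N2 az04. Its N2 az02 libraries, at 77.8%, 58.3% and 33.3%, reached into both groups. AF.0000335 on chromosome X, minus strand, at 15413125 to 15415424, stood at 99.9% in all sacy-1 libraries, against 72%, 73.2% and 73.5% in N2 az04. One N2 az02 library stood at 75% there, beside 2 at 99.9%, and mog-5 had 77.5%, 71.8% and 62.1%. The events of these cross-set comparisons were added for description after their values had been seen.

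Several loci offered more than 2 first exons to 1 acceptor, and there the pairwise values could be turned into the share of each exon. Shares were solved from the pairs that include 1 exon common to all, and the pairs not used for this deviated by at most 0.226 points at the loci given here. The richest was on chromosome I, plus strand, at 14919522 to 14940951, with 15 events among 6 first exons spread over 20812 nt. The third exon from the upstream end took the largest share, 51.3% ± 1.12 in sacy-1, 52.6% ± 2.64 in N2 az02, 54.0% ± 2.22 in mog-5 and 55.6% ± 1.59 in N2 az04 (SD, n = 3 each). The most upstream exon took 14.9%, 12.9%, 18.8% and 15.3% in the same groups, and the second exon at most 0.14% in any group mean, so it was hardly joined in any group.

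At the same locus the most downstream exon took 14.5% ± 0.28 in sacy-1 and 13.9% ± 0.40 in N2 az02, and 10.6% ± 1.25 in mog-5 and 9.70% ± 1.97 in N2 az04. The fourth exon took 12.8% and 14.6% in sacy-1 and N2 az02, and 9.23% and 10.6% in mog-5 and N2 az04. The third exon was the largest and the second the smallest in every group, while the order of the others changed between groups. By group means, the mutants lay nearer to the N2 group of their own set than to the other mutant in every exon except the fifth. In the fifth exon mog-5, at 7.47%, lay nearer to sacy-1, at 6.40%, than to N2 az04, at 8.75%. These distances were not tested.

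A locus on chromosome III, minus strand, at 13765701 to 13767992, had 5 first exons. The most downstream exon took 51.6% ± 2.84 in sacy-1 and 44.8% ± 9.70 in N2 az02, and 38.6% ± 7.21 in mog-5 and 34.3% ± 8.34 in N2 az04. The third exon, a minor one, took 11.6%, 9.36% and 10.9% in sacy-1, against 8.75%, 6.33% and 9.15% in N2 az02, and 5.17%, 5.53% and 2.45% in mog-5, against 4.89%, 4.87% and 5.34% in N2 az04. Its share was higher in all libraries of the az02 set than in any of the az04 set. The most upstream exon took 15.3% ± 1.08 in sacy-1 and 18.8% ± 1.06 in N2 az02, and 24.4% ± 4.43 in mog-5 and 25.1% ± 5.21 in N2 az04. AF.0000234, which sets that exon against the third, had 58.0%, 62.8% and 56.4% in sacy-1, against 67.1%, 74.7% and 68.5% in N2 az02, and 81.9%, 84.1% and 89.3% in mog-5, against 85.6%, 79.7% and 83.5% in N2 az04.

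The locus of AF.0000392, on chromosome IV, plus strand, at 8987253 to 8988865, had 3 first exons. The middle exon took 67.8% ± 2.32 in sacy-1 and 61.9% ± 8.19 in N2 az02, and 43.9% ± 2.57 in mog-5 and 41.1% ± 3.88 in N2 az04. The upstream exon took 20.6% ± 4.66 in sacy-1 and 33.5% ± 7.93 in N2 az02, and 46.7% ± 2.18 in mog-5 and 48.9% ± 3.23 in N2 az04. The middle exon was thus the major one in every library of the az02 set, while the upstream and the middle exon were within a few points of each other or the upstream one led in the az04 set. The most downstream exon took 14.4%, 10.3% and 10.1% in sacy-1, against 3.85%, 5.0% and 5.08% in N2 az02, and 8.79%, 9.85% and 9.72% in mog-5, against 10.2%, 9.26% and 10.6% in N2 az04. For that exon N2 az02 was the group apart, so the low value of AF.0000392 in sacy-1 joined a small share of the upstream exon with a share of the downstream exon near that of the az04 set.

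**Figure D5:**
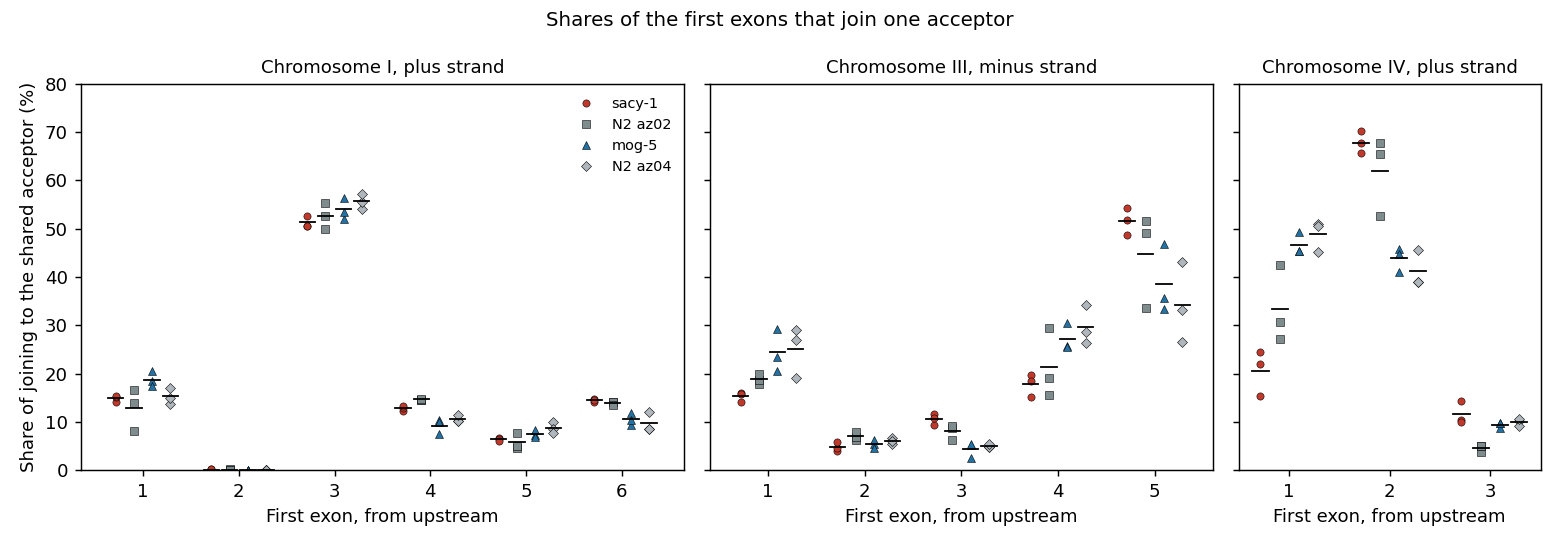
Points give the share (%) of joining to 1 acceptor that came from each first exon, ordered from the most upstream, in every library at 3 loci with 6, 5 and 3 first exons, and bars are group means. At the locus on chromosome IV the middle exon takes 52.6% to 70.2% in the libraries of sacy-1 and N2 az02 and 38.9% to 45.8% in those of mog-5 and N2 az04.

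Other loci with many events gave less. On chromosome III, plus strand, at 11657638 to 11676397, the most upstream of 4 joining sites took 41.1% ± 2.45 in sacy-1 and 34.7% ± 0.30 in N2 az02, and 40.03% ± 4.53 in mog-5 and 39.4% ± 6.19 in N2 az04. Donor sites at 11675633 and 11675651, far downstream of it, took 12.6% and 45.5% in sacy-1 and 17.3% and 47.6% in N2 az02. At loci on chromosome I, minus strand, at 2875652 to 2876326, and on chromosome III, plus strand, at 4121438 to 4139342, the pairs deviated by up to 76.8 and 5.66 points, so no shares are given.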

How the data were processed

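Per the file headers, the authors deposited 2 lists of splicing events per library on build ce10. Bowtie2, STAR and SAMtools are the tools found in the submitters' processing notes, with no version or role. The deposited value is a per mille score for each form of an event; how it was counted, and the annotation beyond its archive number, are not given in the sources used here. Upstream use was computed as the included score over both scores, in percent. An event was tested when listed in all libraries of a comparison. Differences were tested on the percent scale with limma 3.58.1 (R 4.3.3) and no covariates, and p-values were adjusted by Benjamini-Hochberg over all events of the catalogue. The test was also run on simulated data to check the code, and no result here rests on that run. A value with an SD of 0 in both groups borrows its spread from other events. Intervals are limma's 95% intervals, unadjusted, and cover the spread between libraries only.

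Named events were those called, the 8 largest separated differences per comparison, 5 shared by both mutants, 3 with the smallest p of the difference of effects, the 5 loci with most events and the 5 steadiest mixed loci, 1 event per locus. The events across library sets and the 8 passing between the N2 groups without a minimum difference were added after their values were seen. So were the shares at the 3-exon loci of AF.0000392 and AF.0000320. The members and lists were chosen with earlier results of these data known. No gene names or sequences are given, since no annotation or genome of build ce10 was used here. Alternatives were the arcsine square root scale, a variance trend, no minimum difference, other listing rules, other N2 groups, 1 fit of all 12 libraries and leaving out each library.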

Additional observations from a re-analysis of the deposited data

Results flagged for a closer look

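At AF.0000310 on chromosome II, at 6485645 to 6486903, the effects of both mutants differed by 25.98 points of upstream use in the test of the difference itself, and the N2 az02 libraries were the lowest 3 of the 12. At AF.0000220 on chromosome II, at 5280106 to 5282500, the effects differed by -8.68 points, under the minimum of 15 points, with an adjusted p above 0.05 in 11 of 12 fits with a library left out, and the N2 az04 libraries were the lowest 3 of the 12.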

How the results depend on the processing

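Called first exon events numbered 0 in sacy-1 against N2 az02. They were 1 where an event had to be listed in only 2 of 3 libraries per group (AF.0000137, with 0.1% in 2 sacy-1 and 99.9% in 2 N2 az02 libraries), 3 in 1 fit of all 12 libraries (AF.0000061, AF.0000310 and AF.0000392), 15 against N2 az04, and 0 to 1 with a library left out. The single call was AF.0000136 without az023 and AF.0000331, whose groups then had an SD of 0, without az026. In mog-5 the count was 0 against N2 az04, also with each library left out, and 7 against N2 az02. Between the N2 groups it was 0, but 1 on the arcsine square root scale, 8 without the minimum difference, 8 in 1 fit of all 12 libraries and 0 to 2 with a library left out, with 1 without az041 and 2 without az022 or az023. The difference of both effects gave 1, but 2 without the minimum and 0 to 3 with a library left out, highest without az026; sacy-1 directly against mog-5, chosen after seeing the data, gave 16. Across library sets, leaving out a library, also chosen after seeing the data, gave 8 to 14 in sacy-1 against N2 az04, lowest without az043, 0 to 3 in mog-5 against N2 az02, lowest without az021, and 5 to 11 in sacy-1 against mog-5, lowest without az025 or az026. Averaging each locus first gave 64.8% in sacy-1 and 64.4% in N2 az02, and 64.3% in mog-5 and 64.0% in N2 az04.

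Of 372 values of named events under alternatives, 348 kept direction and side of the threshold, 10 passed it newly, 10 (all of AF.0000310) no longer passed, and 4 reversed; this threshold includes the 15 points. By adjusted p alone, the difference of effects at AF.0000220 no longer passed in 11 of 12 fits with a library left out, nor with arcsine values (0.161). The reversed values were those of mog-5 against N2 az02, -8.23 points at AF.0000061, -4.21 at AF.0000370 and -10.8 at AF.0000334, and against all 6 N2 libraries -2.54 at AF.0000334; the cause was not tested. No paired analysis was possible because the library numbers differ between groups. Read depth is unknown, so events with few reads could not be left out.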
